A study of Homo sapiens with 8 samples.

Results

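The 7 genes described here, LHPP, KLHL29, ZFHX4, MVB12B, ACYP2, DSCAML1 and SSUH2, were chosen because their RNA fell far in MDAH or SKOV3 cells, or in both, when the splicing factor SFPQ was silenced. They are 7 of the 20503 genes named on the array, and they were measured by 11 of its 50599 probes, each of which is reported apart. The choice used the difference between silenced and control cells in these same arrays, so that the size of the falls is given as a description without a test. The genes were picked by name and not by a limit on the fall. The largest of their falls, at 1 LHPP probe, ranked 4th among the 29021 probes tested in MDAH and 20th in SKOV3 cells.

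MDAH and SKOV3 are established lines of epithelial ovarian cancer, and each was represented by 4 single-colour Agilent arrays of total RNA. In each line, 1 silenced array held cells carrying sh-SFPQ#2 and 1 held cells carrying sh-SFPQ#3, delivered by lentivirus. The other 2 arrays of a line held cells not silenced for SFPQ, called control 1 and control 2. The sample labels name both as control shRNA cells, whereas the supplementary methods speak of a parental and an sh-ctrl sample, so that a transduced and an untransduced control may stand side by side. No platinum treatment is named for any of the arrays. Each shRNA was thus measured once in each line, and nothing in the labels ties the 2 controls to separate cultures, so that p-values measure the spread between these arrays, which may be technical.

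All arrays lay on 1 slide and were read in 1 scan, and the controls of each line were placed ahead of its silenced cells, for which reason slide position and group cannot be told apart. The 75th percentile of the signal lay between 387 and 496 on 7 arrays and at 244 on the array of MDAH cells with sh-SFPQ#3. The values given are log2 signals minus the log2 of that percentile, so that 0 is the percentile itself. The epithelial markers EPCAM, KRT7, KRT8 and KRT18 and the ovarian marker PAX8 were well above background on all 8 arrays. CDH1 was so on 4 MDAH and 2 SKOV3 arrays, WT1 on 4 and 0, and MUC16 on 0 and 2. Of the markers of other cell types, CDH5, PTPRC, CD14 and COL1A1 were above background on all 8 arrays, while PDGFRB and CD3E were above it on 0. COL1A2 was above it on 0 MDAH and 2 SKOV3 arrays, DCN on 0 and 4, PECAM1 on 1 and 0, and VWF on 2 and 0.

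SFPQ is an RNA- and DNA-binding protein of the nucleus that acts with its partner NONO (p54nrb) in paraspeckles, in pre-mRNA splicing and in transcription. The 7 genes have no common pathway in textbook knowledge. LHPP is a phosphatase that removes phosphate from histidine, and ACYP2 is an acylphosphatase, so that both are small phosphate-cleaving enzymes. KLHL29 belongs to the Kelch-like proteins, many of which bring substrates to cullin 3 ubiquitin ligases, and MVB12B is a subunit of ESCRT-I, the complex that sorts ubiquitinated membrane proteins into multivesicular bodies. ZFHX4 is a large transcription factor with zinc fingers and homeodomains, DSCAML1 is a cell adhesion molecule of the immunoglobulin superfamily known from neurons, and SSUH2 is named for its similarity to ssu-2 of the nematode.

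The stretches just upstream of the transcription starts were examined because these genes fell together and the choice made no use of their sequence. RefSeq windows of 250 bases upstream (GRCh38.p14) were matched for 5 of the 7 genes, without ZFHX4 and DSCAML1, and number 8, with 3 for ACYP2 and 2 for SSUH2. Shown are LHPP, KLHL29 and MVB12B, which had the probes with the largest differences between the shRNAs in both lines, and SSUH2, whose fall differed most between the lines among the genes detected in both. Capitals mark the GC box, GGGCGG, and the CCAAT box on either strand, where overlapping copies of a motif were counted each and run together.
LHPP, chr10:124461573-124461822, plus strand: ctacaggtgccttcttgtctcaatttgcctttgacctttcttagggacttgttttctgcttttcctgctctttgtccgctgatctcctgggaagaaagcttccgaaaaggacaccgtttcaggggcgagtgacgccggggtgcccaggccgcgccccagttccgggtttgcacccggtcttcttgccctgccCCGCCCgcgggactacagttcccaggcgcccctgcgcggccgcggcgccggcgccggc
KLHL29, chr2:23384929-23385178, plus strand: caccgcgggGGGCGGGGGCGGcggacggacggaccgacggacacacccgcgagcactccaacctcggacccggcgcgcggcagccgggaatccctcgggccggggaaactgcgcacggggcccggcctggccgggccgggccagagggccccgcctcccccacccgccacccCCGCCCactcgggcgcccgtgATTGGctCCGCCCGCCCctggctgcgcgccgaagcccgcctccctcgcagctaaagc
MVB12B, chr9:126326579-126326828, plus strand: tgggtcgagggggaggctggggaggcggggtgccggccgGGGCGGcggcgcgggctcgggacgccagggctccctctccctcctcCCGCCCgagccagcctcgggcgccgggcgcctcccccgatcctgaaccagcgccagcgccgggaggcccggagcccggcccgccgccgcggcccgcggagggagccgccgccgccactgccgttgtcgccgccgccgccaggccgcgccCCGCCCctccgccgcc
SSUH2, chr3:8644799-8645048, minus strand: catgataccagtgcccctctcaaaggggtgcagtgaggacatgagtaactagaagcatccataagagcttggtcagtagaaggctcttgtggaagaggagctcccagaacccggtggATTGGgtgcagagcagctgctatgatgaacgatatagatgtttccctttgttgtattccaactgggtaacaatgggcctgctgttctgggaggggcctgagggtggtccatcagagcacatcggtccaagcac

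The KLHL29 window held 5 GC boxes, the MVB12B window 3 and the LHPP window 1, and the SSUH2 windows held none. Of the ACYP2 windows 1 held 4, so that the motif was in 4 of the 8 windows, and it occurred in 42.6% of 35116 RefSeq windows of the same length. The CCAAT box was in 2 of the 8, those of KLHL29 and SSUH2 shown above, and in 32.0% of all windows. TATAAA, in 10.7% of all windows, and the AP-1 motif TGACTCA, in 4.20%, were both found in a window of ACYP2 only, and the E-box CACGTG, in 6.34%, in none of the members' windows. The share of G and C was 85.2% for MVB12B, 80.4% for KLHL29, 63.6% for LHPP, 52.4% for each SSUH2 window and 78.0%, 63.6% and 46.4% for those of ACYP2. The median of the 8 was 63.6%, within the quartiles of all windows (46.4% and 68.0%, median 58.0%). A motif match describes the letters and is not a binding site.

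The silenced gene was looked at first. SFPQ (NM_005066) had log2 signals of 3.64 and 3.91 on the MDAH controls, 2.45 under sh-SFPQ#2 and 2.10 under sh-SFPQ#3. The SKOV3 controls read 4.84 and 4.66, against 3.01 and 2.48 under the same shRNAs. It fell by 1.50 on the log2 scale in MDAH cells (SE 0.24, adjusted p = 0.0300 from limma) and by 2.01 in SKOV3 cells (SE 0.24, adjusted p = 0.0220 from limma), as the labels have it. In both lines SFPQ was lower with sh-SFPQ#3 than with sh-SFPQ#2, and this difference did not pass the threshold (-0.44 over both lines, SE 0.18, adjusted p = 0.322 from limma). With 1 array left out, the adjusted p of the silencing rose up to 0.191 in MDAH cells, without MDAH control 2, and up to 0.0970 in SKOV3 cells, without SKOV3 control 1. The call was lost in either line without any 1 of the 4 controls and without the sh-SFPQ#3 array of that line.

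LHPP RNA, read at probe A_23_P75299 (NM_022126), showed the deepest fall of the 7 genes. Its log2 signal was 3.43 and 3.32 in the MDAH controls, -0.19 under sh-SFPQ#2 and -2.77 under sh-SFPQ#3. The SKOV3 controls had 2.86 and 2.06, against -0.48 under sh-SFPQ#2 and -3.10 under sh-SFPQ#3. The groups lay far apart in both lines, and the arrays under sh-SFPQ#3 were the lowest in each. The mean change was -4.85 in MDAH cells, a 28.8-fold fall, and -4.25 in SKOV3 cells, a 19.0-fold fall (2 arrays against 2 in each line). In unscaled intensity, LHPP went from 5330 and 4808 in the MDAH controls to 355 and 35.8, and it remained well above background on every array. As these are bulk samples, fewer cells that make an RNA and less of it in each cell cannot be told apart, here and for the genes that follow.

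The second LHPP probe, A_24_P355493, is assigned to the same transcript. It stood at 0.37 and 0.24 in the MDAH controls, -1.07 under sh-SFPQ#2 and -1.52 under sh-SFPQ#3, and at 1.24 and 1.01 in the SKOV3 controls, -0.15 under sh-SFPQ#2 and -1.02 under sh-SFPQ#3. All silenced arrays lay below the controls here too, but the change was -1.60 in MDAH and -1.71 in SKOV3 cells, or 3.03-fold and 3.27-fold.

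KLHL29 was covered by 2 probes of NM_052920 that did not move alike. At A_23_P209360 the log2 signal was 2.86 and 2.64 in the MDAH controls, 0.72 under sh-SFPQ#2 and -2.06 under sh-SFPQ#3. The SKOV3 controls had 3.14 and 3.15, against 0.32 under sh-SFPQ#2 and -1.92 under sh-SFPQ#3. These are changes of -3.42 and -3.94, a 10.7-fold fall in MDAH cells and a 15.4-fold fall in SKOV3 cells. At A_33_P3359308 the MDAH values were -1.03 and -1.09 in the controls, -1.22 under sh-SFPQ#2 and -0.64 under sh-SFPQ#3, so that the silenced arrays stood on both sides of the controls. In SKOV3 cells this probe went from -0.90 and -1.12 to -1.44 and -1.34. The silenced SKOV3 arrays lay below the controls by 0.38 on average, a 1.31-fold difference. The probe was well above background on all 8 arrays.

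ZFHX4 (NM_024721, probe A_23_P43095) had log2 signals of 0.20 and 0.19 in the MDAH controls, -2.67 under sh-SFPQ#2 and -3.38 under sh-SFPQ#3. The SKOV3 controls differed from each other, at 0.87 and -0.68, and the silenced SKOV3 arrays were at -3.22 and -3.70. The fall was thus 9.31-fold in MDAH and 11.8-fold in SKOV3 cells, with a control SD of 0.01 in the former and of 1.09 in the latter. Every silenced array was below every control of its line.

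MVB12B had probes that moved in opposite directions. Probe A_33_P3248439 (NM_033446) fell from 2.64 and 2.59 in the MDAH controls to 0.46 under sh-SFPQ#2 and -2.50 under sh-SFPQ#3. In SKOV3 cells it went from 3.88 and 3.70 to 1.83 under sh-SFPQ#2 and -0.15 under sh-SFPQ#3. These changes of -3.63 and -2.95 correspond to a 12.4-fold and a 7.73-fold fall. The other NM_033446 probe, A_23_P354591, was at -1.75 and -1.74 in the MDAH controls, -3.25 under sh-SFPQ#2 and -3.24 under sh-SFPQ#3. In the SKOV3 controls it was at -0.53 and -0.56, with sh-SFPQ#2 at -2.37 and with sh-SFPQ#3 at -3.92. It thus fell in the same direction, 2.84-fold in MDAH and 6.06-fold in SKOV3 cells, and in MDAH cells both shRNAs gave the same value. With the normexp background correction this fall was smaller, at -0.57 on the log2 scale in MDAH and -1.49 in SKOV3 cells. Without the correction it was -1.50 and -2.60.

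The probe of the second MVB12B transcript, NM_001011703 (A_24_P941557), was higher in silenced cells of both lines. Its unscaled intensity was 7.01 and 8.61 in MDAH controls, not well above background, 88.7 under sh-SFPQ#2 and 74.7 under sh-SFPQ#3. The SKOV3 controls had 40.6 and 28.5, against 150 under sh-SFPQ#2 and 337 under sh-SFPQ#3, and SKOV3 control 2 was not well above background. In log2 values the MDAH arrays were at -6.15, -5.81, -2.19 and -1.71 and the SKOV3 arrays at -3.43, -3.76, -1.63 and -0.47, in the same order. The rise in MDAH cells was 7.60-fold when each control was set to the lowest signal of a probe well above background on its array, if that was higher. That lowest signal came from other probes, so 7.60-fold holds for this setting and is not a lower limit. In SKOV3 cells it was 5.85-fold. With the normexp background correction the rise was smaller, 1.22 on the log2 scale in MDAH and 1.30 in SKOV3 cells, against 4.03 and 2.55 without it, and in MDAH cells both values rest on controls that were not well above background.

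ACYP2 (NM_138448, probe A_24_P336848) was measured at 1.20 and 0.87 in the MDAH controls, -2.14 under sh-SFPQ#2 and -3.01 under sh-SFPQ#3. The SKOV3 controls read 0.76 and 0.25, against -2.02 under sh-SFPQ#2 and -2.52 under sh-SFPQ#3. Every silenced array was again below the controls of its line, and the fall was 12.2-fold in MDAH and 6.86-fold in SKOV3 cells.

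DSCAML1 (NM_020693, probe A_23_P47340) was measured well above background in MDAH cells only. There its controls read 1.57 and 1.54, against -1.48 for sh-SFPQ#2 and -3.57 for sh-SFPQ#3, a 16.9-fold fall on average (8.21-fold with sh-SFPQ#2 and 34.9-fold with sh-SFPQ#3). In SKOV3 cells the intensity was 10.7 and 21.9 in the controls and 5.72 and 11.7 in silenced cells. None of these 4 arrays was well above background and the groups overlapped, so that no fold is given.

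SSUH2 (NM_015931, probe A_23_P144005) was less changed in MDAH cells, from -1.29 and -1.17 in the controls to -2.28 under sh-SFPQ#2 and -1.98 under sh-SFPQ#3. In SKOV3 cells it went from 0.13 on both controls to -2.56 under sh-SFPQ#2 and -3.69 under sh-SFPQ#3. The fall was 1.87-fold in MDAH and 9.55-fold in SKOV3 cells. All silenced arrays lay below the controls in both lines. The difference between the lines was not tested, because SSUH2 was chosen for a large fall in 1 or both of them.

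**Figure D1:**
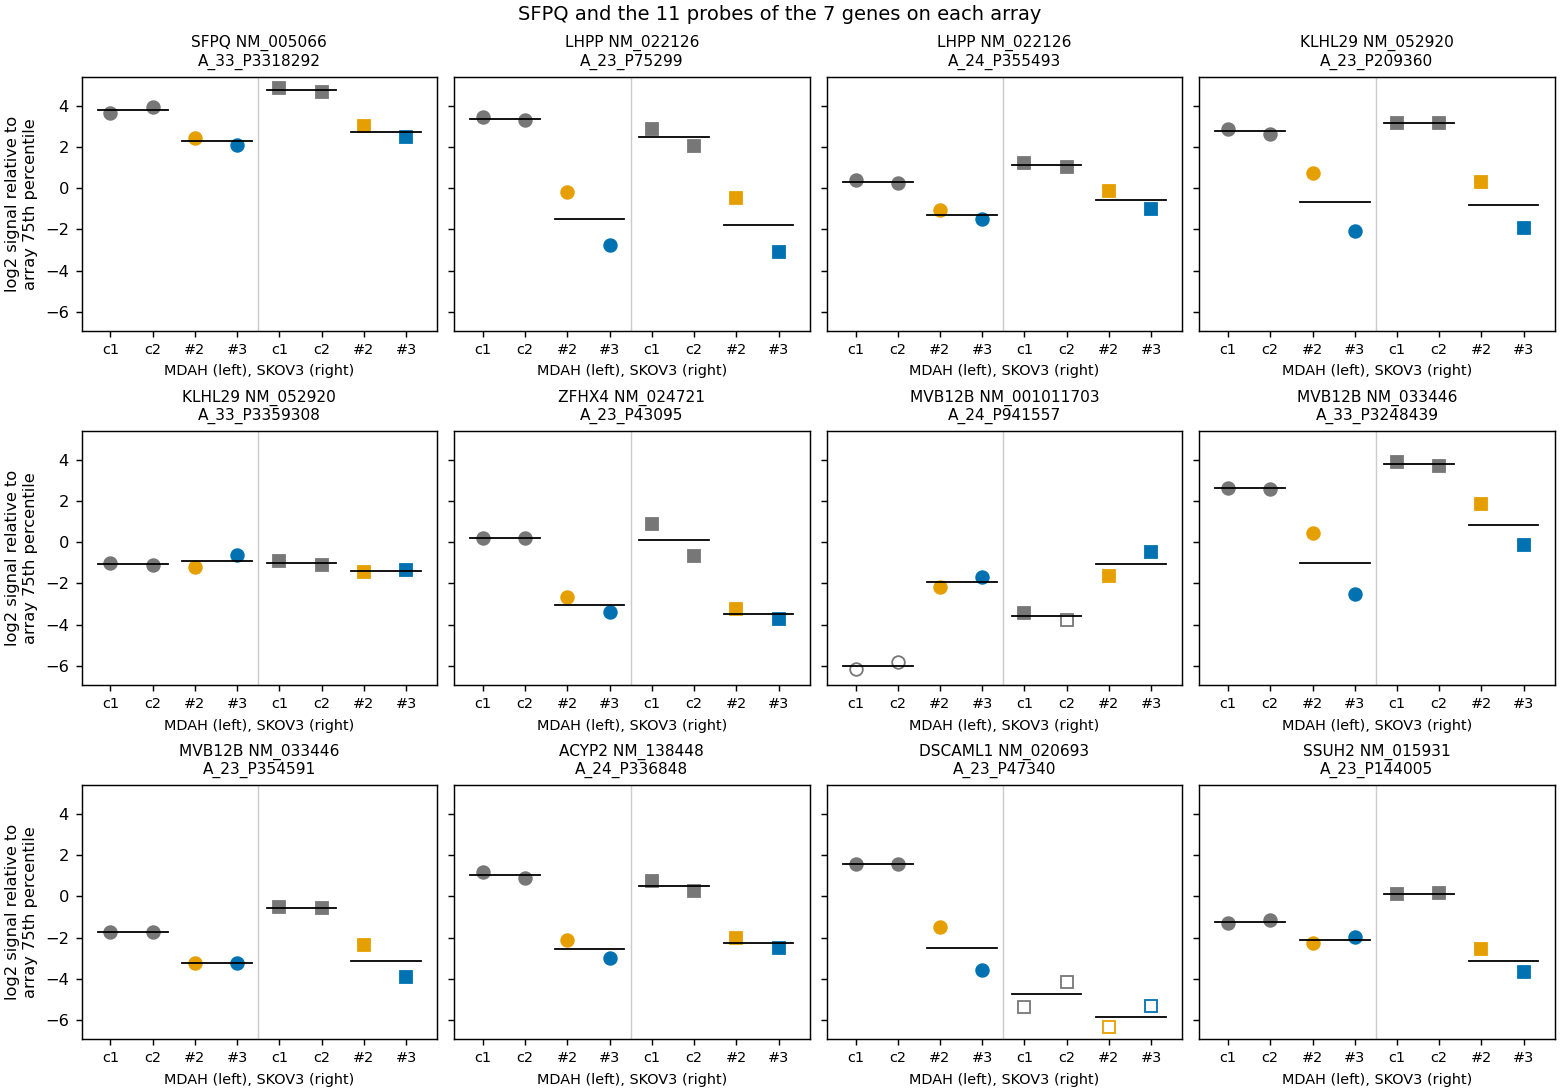
Log2 signal with each array's 75th percentile as 0 (vertical axis) for SFPQ and each of the 11 probes, on the 8 arrays (horizontal axis), with circles for MDAH and squares for SKOV3, grey for controls, orange for sh-SFPQ#2, blue for sh-SFPQ#3, and lines at the means of the 2 arrays of a group. Open symbols are arrays where the probe was not well above background, which are the 2 MDAH controls and SKOV3 control 2 of the MVB12B probe A_24_P941557 and the 4 SKOV3 arrays of DSCAML1.

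Over the 11 probes, both silenced arrays lay below both controls for 9 in MDAH cells, where this held for 23.4% of all probes tested, and for 9 in SKOV3 cells, where it held for 30.6%. In both lines at once it held for 8 probes, against 10.3% of all probes, and 1 probe, that of MVB12B NM_001011703, lay above the controls in both, against 11.3%. The genes were chosen for this, so that nothing is read from these counts. The median change over the 11 probes was -3.22 in MDAH and -2.78 in SKOV3 cells, where all probes tested had medians of 0.07 and -0.03.

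The genes were chosen for their fall and not for the difference between the 2 shRNAs, but both come from the same silenced arrays. The difference was tested over both lines with a term for the shRNA in limma. A probe of LHPP and a probe of KLHL29 were called lower with sh-SFPQ#3 than with sh-SFPQ#2, and the other probe of each gene was not called. At the LHPP probe A_23_P75299 the difference was -2.58 in MDAH and -2.62 in SKOV3 cells, together -2.60 (SE 0.22, adjusted p = 0.0397 from limma). At the KLHL29 probe A_23_P209360 it was -2.77 and -2.24, together -2.51 (SE 0.20, adjusted p = 0.0397 from limma). The MVB12B probe A_33_P3248439 had a difference of similar size, -2.96 and -1.99, that did not pass the threshold (-2.47 over both lines, SE 0.27, adjusted p = 0.0582 from limma). These 2 calls among the 11 probes stand against 0.372% of all probes called, and 6 of the 11 probes had an unadjusted p under 0.05, against 17.4% of all probes. A probe that fell far can differ more between the shRNAs than a probe that hardly changed. All probes tested had median changes of 0.07 in MDAH and -0.03 in SKOV3 cells. Their shares are thus no like comparison, and nothing is read from these counts or the shRNA counts below. Each difference had 2 pairs of arrays behind it, and both calls were lost in each of the 8 fits that left out 1 array, with quantile normalisation, with the deposited log2 table and without a filter on dim probes.

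Most of the remaining probes differed less between the shRNAs. ACYP2 was lower with sh-SFPQ#3 in both lines, by 0.87 and 0.50 (together -0.68, SE 0.17, adjusted p = 0.175 from limma), and ZFHX4 by 0.70 and 0.48 (together -0.59, SE 0.38, adjusted p = 0.481 from limma). The LHPP probe A_24_P355493 had -0.66 over both lines (SE 0.18, adjusted p = 0.188 from limma). SSUH2 was higher with sh-SFPQ#3 in MDAH cells, by 0.30, and lower in SKOV3 cells, at -1.13. DSCAML1 had a difference of -2.09 in MDAH cells, near those of the called probes, and was not well above background on the SKOV3 arrays, which enter its fit (-0.53 over both lines, SE 0.78, adjusted p = 0.758 from limma). The KLHL29 probe A_33_P3359308 had 0.34 over both lines (SE 0.19, adjusted p = 0.419 from limma). The MVB12B probe A_23_P354591 had 0.01 in MDAH and -1.55 in SKOV3 cells. The MVB12B probe that was higher in silenced cells was also higher with sh-SFPQ#3 than with sh-SFPQ#2, by 0.48 and 1.16 (together 0.82, SE 0.26, adjusted p = 0.230 from limma). In all, sh-SFPQ#3 was below sh-SFPQ#2 in both lines at 6 of the 11 probes, against 27.1% of all probes, and the median difference over both lines was -0.66 for the 11 probes and 0.05 for all probes tested. The array of MDAH cells with sh-SFPQ#3 was the dimmest of the 8. The SKOV3 arrays with sh-SFPQ#3 and sh-SFPQ#2 had 75th percentiles of 466 and 463. A part of array brightness in the shRNA differences was not tested.

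**Figure D2:**
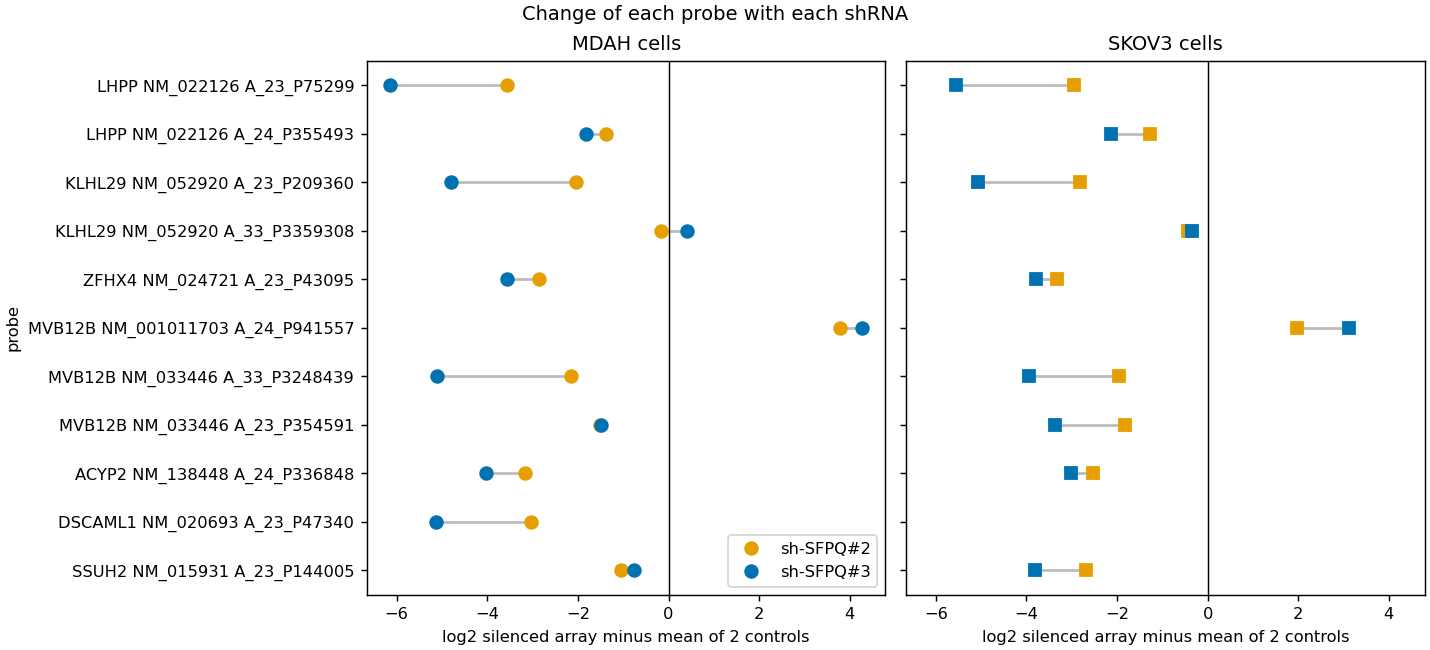
Log2 signal of each silenced array minus the mean of the 2 controls of its line (horizontal axis) for each probe (vertical axis), in MDAH cells (left) and SKOV3 cells (right), with orange for sh-SFPQ#2 and blue for sh-SFPQ#3. LHPP A_23_P75299, KLHL29 A_23_P209360 and MVB12B A_33_P3248439 have the widest gaps between the shRNAs in both lines, and DSCAML1 is not drawn for SKOV3 cells, where it was not well above background.

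The same fit gave the difference between control 2 and control 1, where no SFPQ shRNA is involved. None of the 11 probes passed the threshold (adjusted p = 0.99999 for each from limma), as none of all probes tested did, a share of 0%. At an unadjusted p under 0.05 limma called 0 of the 11 probes and 3.54% of all. The median of the members was -0.12 and that of all probes 0.02. ZFHX4 had the widest difference, -0.01 in MDAH and -1.54 in SKOV3 cells (together -0.78, SE 0.38), and LHPP A_23_P75299 had -0.11 and -0.80 (together -0.45, SE 0.22). KLHL29 A_23_P209360, with -0.22 and 0.01, and MVB12B A_33_P3248439, with -0.05 and -0.19, hardly varied between controls. Control 2 was below control 1 in both lines at 6 of the 11 probes, against 24.6% of all probes.

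**Figure D3:**
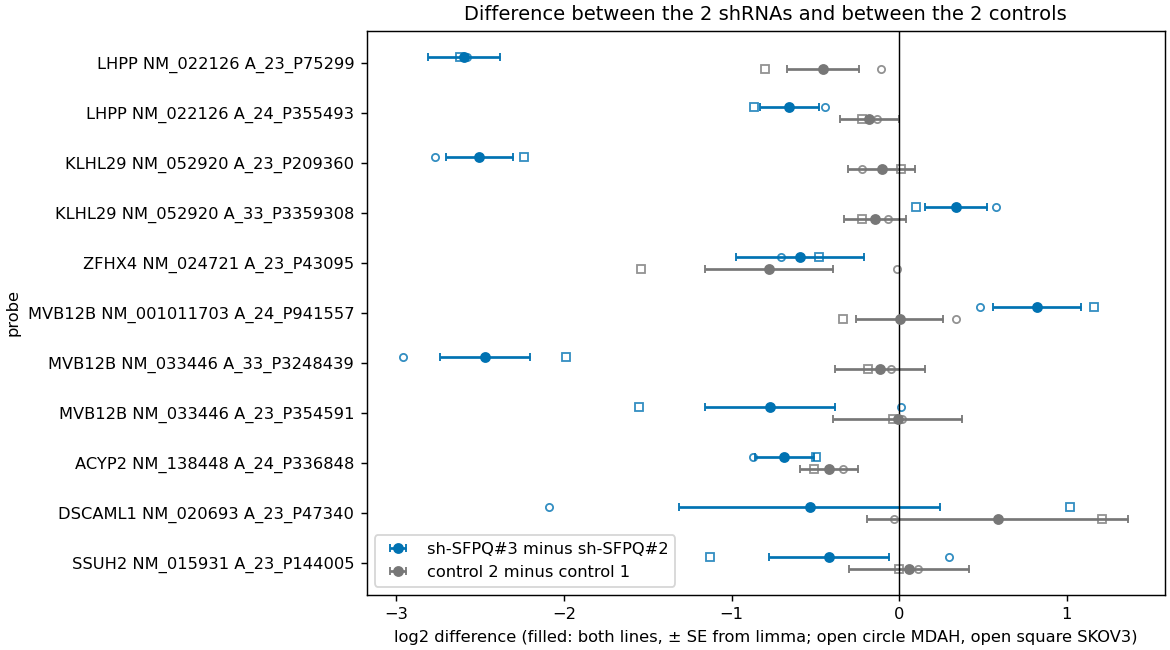
Log2 difference between sh-SFPQ#3 and sh-SFPQ#2 (blue) and between control 2 and control 1 (grey) for each probe, with filled points for the estimate over both lines with its SE from limma, open circles for MDAH and open squares for SKOV3. LHPP A_23_P75299 and KLHL29 A_23_P209360, at -2.60 and -2.51 between the shRNAs, lay at -0.45 and -0.11 between the controls.

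Probes of 1 gene were set side by side by their change, and not by their level, since the brightness of different probes cannot be compared. Among the 4111 genes with several tested probes, the median gap between the highest and the lowest change was 0.27 in MDAH and 0.26 in SKOV3 cells. The gap of KLHL29 was 3.55 in MDAH and 3.56 in SKOV3 cells, and that of LHPP was 3.25 and 2.54. For MVB12B no gap is given, since the controls of its NM_001011703 probe were not, or not all, well above background, and only the opposite direction of that probe is stated. A probe below the controls and another above them in both lines, as for MVB12B, was found in 90 genes, or 2.19%. The gaps are part of the contrast the genes were chosen on and were not tested, and where the probes lie within their transcripts was not analysed here.

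**Figure D4:**
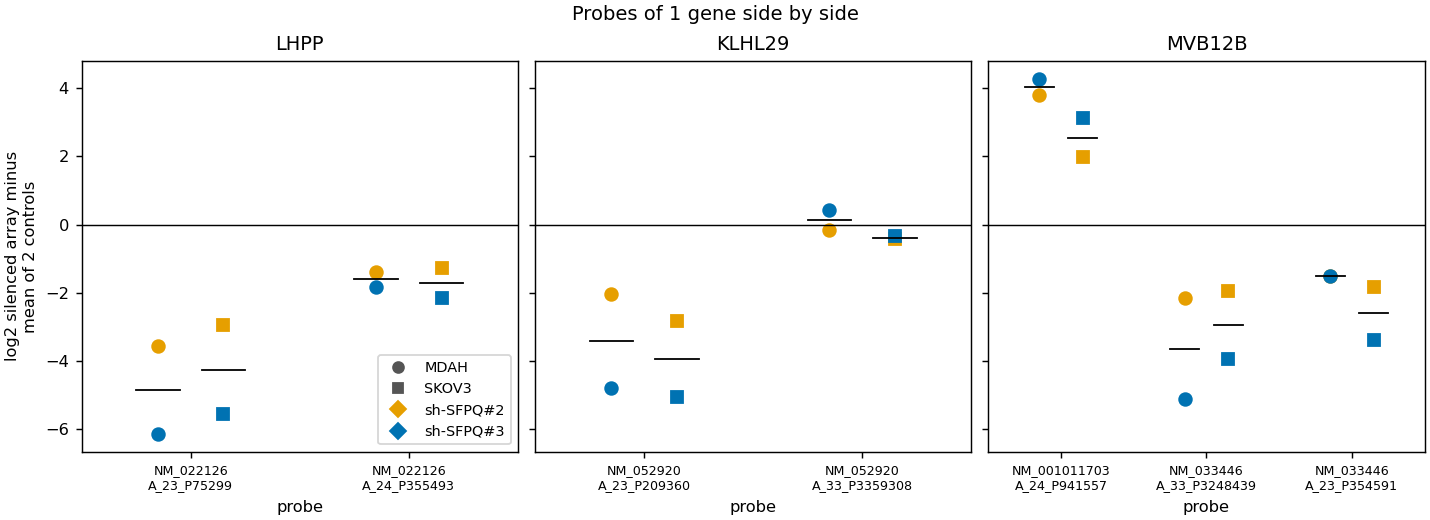
Log2 change of each silenced array against the mean of the 2 controls of its line (vertical axis) for the probes (horizontal axis) of LHPP, KLHL29 and MVB12B, with circles for MDAH, squares for SKOV3, orange for sh-SFPQ#2, blue for sh-SFPQ#3 and lines at the mean of the 2 silenced arrays. Of the KLHL29 probes only A_23_P209360 is far from 0, and of the MVB12B probes that of NM_001011703 is above 0 and the NM_033446 probes are below it.

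In the controls the genes also differed between the lines, given here as mean MDAH minus SKOV3 log2 signal without a test. The MVB12B probes of NM_033446 were lower in MDAH cells, at -1.17 and -1.20, and so was SSUH2, at -1.36. For MVB12B NM_001011703 no difference is given, as 3 of its 4 controls were not well above background. KLHL29, with -0.39 and -0.05, and ZFHX4, with 0.10, were at similar levels in both lines, and for ZFHX4 the gap was smaller than the spread of the SKOV3 controls. ACYP2 was at 0.53. The LHPP probes disagreed, with 0.91 at A_23_P75299 and -0.82 at A_24_P355493. DSCAML1 was well above background in MDAH controls and not in SKOV3 controls.

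The genes whose pattern was most like that of each member were found by Pearson's r between brightest probes over the 8 arrays, each array taken relative to the mean of its line, among 15545 named genes. The arrays of this measure fall into silenced and control groups and share slide and scan, so that r describes likeness and was not tested. LHPP was most like the glypican GPC6 (r = 0.998), which changed by -5.11 in MDAH and -4.63 in SKOV3 cells, and the methyltransferase SMYD3 (r = 0.997), which changed by -3.41 and -2.90. KLHL29 came closest to EFCAB11 (r = 0.998), with changes of -1.51 and -1.58, and AGAP1 (r = 0.997), an Arf GTPase-activating protein with changes of -3.00 and -3.31. For MVB12B they were CWC27, a spliceosome-associated protein, and SAMD12 (r = 0.998 for each). CWC27 changed by -1.88 and -1.48, and SAMD12 by -4.05 and -3.19. ACYP2 was closest to the splicing factor SRSF4 (r = 0.998) and KSR2 (r = 0.997). SRSF4 changed by -0.96 in MDAH and -0.74 in SKOV3 cells, and KSR2 by -2.18 and -1.76. ZFHX4 was closest to HADH, an enzyme of fatty acid oxidation (r = 0.996), and TRAK1 (r = 0.994), whose changes were small, between -0.63 and -0.51. DSCAML1 was closest to RGMB-AS1 (r = 0.994) and STAC3 (r = 0.987), and SSUH2 to STARD4-AS1 (r = 0.995) and the potassium channel KCNQ3 (r = 0.993). STARD4-AS1 changed by -0.80 in MDAH and -2.55 in SKOV3 cells, and KCNQ3 by -0.24 and -0.79. RGMB-AS1 changed by -0.72 and -0.14, and STAC3 by -1.28 and -0.19. The genes were picked by r over these arrays, so that a like pattern of change is part of the choice, and for DSCAML1 the SKOV3 values in it are signal not well above background.

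The families and complexes of the members were examined by a list of 54 named relatives, of which 46 genes with 51 probes were tested. In MDAH cells 1 probe was called lower and 0 higher by limma, against 2.11% and 0.582% of all probes. In SKOV3 cells 0 were called in either direction, against 0.786% lower and 0.517% higher, while an unadjusted p under 0.05 was given by limma to 6 of the 51 probes there, against 18.6% of all probes, and to 10 in MDAH cells, against 21.5%, so that neither count exceeded the share of all probes. The gene called was KLHL13, a substrate adaptor of a cullin 3 ubiquitin ligase that acts in mitosis. KLHL13 (NM_033495) was at -0.10 and 0.22 in the MDAH controls, -1.05 under sh-SFPQ#2 and -0.87 under sh-SFPQ#3, a fall of 1.02 on the log2 scale (SE 0.19, adjusted p = 0.0453 from limma). In SKOV3 cells KLHL13 changed by -0.02 (SE 0.19, adjusted p = 0.969 from limma), and the difference between the lines did not pass the threshold (-1.002, SE 0.27, adjusted p = 0.230 from limma). The call was also lost when the scaling was changed to the median or to quantiles, with the deposited log2 table, without a filter on dim probes, and in each fit without 1 array.

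None of the 8 other ESCRT-I subunits was called in either line, where their changes lay between -0.21 and 0.46 (MDAH) and between -0.44 and 0.06 (SKOV3), and at an unadjusted p under 0.05 limma had 1 of the 8 in MDAH and 0 in SKOV3, where it had 21.5% and 18.6% of all probes. Of the 34 Kelch-like probes tested, 18 were lower in MDAH and 18 in SKOV3 cells. Of all 29021 probes tested, 12715 and 15286 were lower. The Kelch-like changes had medians of -0.02 and -0.01 and ran from -2.05 to 0.82 (MDAH) and from -0.83 to 0.86 (SKOV3). At an unadjusted p under 0.05 limma had 8 of these 34 in MDAH and 5 in SKOV3, against 21.5% and 18.6% of all probes. The ZFHX2 and ZFHX3 probes tested were not called, with changes of -0.02 and 0.14 in MDAH cells and 0.18 and 0.69 in SKOV3 cells. The 7 genes of histidine phosphorylation and LHPP-like phosphatases had medians of 0.30 in MDAH and -0.10 in SKOV3 cells and 0 calls, with 1 of 7 at an unadjusted p under 0.05 in each line in limma, near the shares of 21.5% and 18.6% for all probes. DSCAM, the close relative of DSCAML1, was not well above background and was not tested, and ACYP1, the relative of ACYP2, was not analysed here. Over all relatives tested the median change was 0.07 (MDAH) and -0.00318 (SKOV3), where all probes had 0.07 and -0.03.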

How the data were processed

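Total RNA of 8 samples was labelled with Cy3 and hybridised to Agilent 8x60k arrays. The authors extracted spots with Feature Extraction (10.7.3.1 per the labels, 11.5.1.1 per the file headers) and deposited the background-subtracted intensity of each spot, without normalisation between arrays, and a table of log2 values. The steps behind that table are not given in the sources used here. Recomputation showed quantile-normalised log2 signals minus each probe's median over the arrays (r of at least 0.9998 per array), and the table served as an alternative.

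Control spots and outlier spots (209 to 310 per array) were dropped, log2 intensities of repeated spots were averaged, and each array was set relative to its 75th percentile. A probe was kept if both arrays of some group were well above background (29021 of 50599). Gene symbols came from RefSeq accessions and a table of human genes, which matched 28174 of the 30878 probes that carry one. The probes were fitted in 4 groups with limma 3.58.1 in R 4.3.3 (4 residual degrees of freedom), and for the shRNA and control numbers with a term for each (2 residual degrees of freedom). The tests are two-sided, with Benjamini-Hochberg adjustment over all probes tested and a threshold of 0.05. Upstream sequences are those of RefSeq on GRCh38.p14. No coordinates of probes were used.

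Every probe of the members was reported, with SFPQ, each relative called in a line, and the 2 most similar genes of each member. The members and lists were chosen with earlier results of these data known. On simulated data with 200 of 29013 probes changed by 2 on the log2 scale, 131 were recovered for MDAH and 128 for SKOV3 silencing, with 8 and 5 false calls, and 0 for the shRNA difference, with 0 false calls. The simulated noise came from the fit in 4 groups, whose spread holds the difference between the shRNAs. It was also drawn for each array apart. The simulated result for the shRNA difference therefore cannot be set against the calls in the data. Alternatives were other scalings, background correction, filters, probe choice, variance prior, outlier spots kept and each array left out. The number of arrays limits the precision.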

Additional observations from a re-analysis of the deposited data

How the results depend on the processing

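The members' changes gave 110 values under other scalings, background correction, the deposited log2 table and outlier spots kept. Of these, 94 moved by less than the spread between the 2 arrays of a group, 16 moved by more, and 0 reversed. The 2 silenced arrays of a line carry different shRNAs, so this spread was wide where the shRNAs differed. With normexp LHPP A_23_P75299 went from -4.25 to -3.38 in SKOV3 cells, still within it. Normexp also took ZFHX4 from -3.22 to -2.15 (MDAH) and from -3.56 to -2.24 (SKOV3). ACYP2 went from -3.60 to -2.72 (MDAH) and SSUH2 from -3.25 to -2.06 (SKOV3). With 2 arrays a group, leaving 1 out cannot move a mean by more than the SD, so ranges are given: LHPP A_23_P75299 ran from -6.14 to -3.56 in MDAH cells and KLHL29 A_23_P209360 from -4.81 to -2.03, and like the other members with wide shRNA differences each took the value of the shRNA kept. Of all member probes 1 reversed, the KLHL29 probe A_33_P3359308 in MDAH cells, which ranged from -0.16, without MDAH sh-SFPQ#3, to 0.42, without MDAH sh-SFPQ#2, against 0.13. The count of member probes below the controls was 9 to 10 in each line with 1 array left out. The count of members called between the shRNAs, 2, became 0 with quantile normalisation, with the deposited table and without a filter on dim probes, and 3 with normexp, with probes well above background on all 8 arrays, with the brightest probe of each gene and with an intensity trend, and ranged from 0 to 0 with 1 array left out. For the controls it stayed at 0 to 0. SFPQ in MDAH cells missed the threshold with each array centred on its median (-1.39, adjusted p = 0.0579 from limma), and without a filter it missed it in MDAH cells (-1.50, adjusted p = 0.0608 from limma) and in SKOV3 cells (-2.01, adjusted p = 0.0593 from limma). With 1 array left out the SFPQ change ranged from -1.68 to -1.33 (MDAH) and from -2.27 to -1.74 (SKOV3). The count of relatives called in MDAH cells, 1, became 0 with median centring, quantile normalisation, the deposited table and no filter, 3 with normexp and 2 with an intensity trend, and ranged from 0 to 1 with 1 array left out. In SKOV3 cells it ranged from 0 to 0. The cause of these shifts was not tested.

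With a replicate block (the shRNA number and the control number as terms), 0 relatives were called in either line (KLHL13 in MDAH cells at adjusted p = 0.0537 from limma), and SFPQ changed by -1.50 and -2.01 (adjusted p = 0.0236 and 0.0178 from limma). The numbers pair no samples by the labels, and arrays of the same number deviated together at r = 0.350 for the silenced and r = 0.0706 for the control arrays over all probes. The slide could not be a block, as there was 1 slide. With 1 array a side, the shRNA and control differences of each line apart are values without a test.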
